A study of Mus musculus with 25 samples.

Results

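Transcripts of 9 genes that mark cytotoxic and innate-like lymphocytes were followed in developing thymocytes with and without the kinase WNK1. The genes were taken by name, with earlier results of these data known. They were the granule genes *Gzma*, *Gzmb* and *Nkg7*, the receptor chains *Il2rb*, *Fcer1g* and *Klrd1*, and the transcription factor genes *Tbx21*, *Zbtb16* and *Rora*. They are 9 of the 48795 genes of the table, and all 9 were among the 14141 genes tested. The cells were sorted Thy1.2+CD44- thymocytes of Rag1-deficient mice aged 7 to 8 weeks that carried the CD2-Cre transgene, which acts in lymphoid cells from their earliest thymic stages. Control mice were *Wnk1* fl/+, so their thymocytes keep 1 intact allele beside 1 that Cre deletes, and WNK1-deficient mice were *Wnk1* fl/fl. Mice were taken uninjected (0 hr) or 3, 24 or 48 hr after 150 µg of an antibody to CD3ε, which stands in for the pre-TCR signal that Rag1-deficient thymocytes cannot make. Each library came from a separate mouse, with 3 libraries in each of the 8 groups and a 4th in the WNK1-deficient group at 0 hr.

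Cytotoxic lymphocytes kill by releasing granules that hold perforin and the granzymes, a family of serine proteases, and the genes for these proteins are switched on by T-box and RUNX factors and by the cytokines that signal through IL-2Rβ. Innate-like lymphocytes, such as NKT cells, some γδ T cells and innate lymphoid cells, acquire such programs early, under factors that include PLZF (*Zbtb16*), RORα and T-BET. Conventional thymocytes pass β-selection without taking on these fates, although precursors in the thymus can transcribe some of the same genes.

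Depth ran from 22527777 to 57304830 reads per library. *Wnk1* was lower in every WNK1-deficient library than in every control library of the same time, with log2 fold changes of -0.83 to -1.05 and adjusted p (limma, Benjamini-Hochberg) of 0.0056 to 0.0104. Reads were counted over the whole gene, so transcripts that lack only the deleted part still count. In replicate 3 of the controls at 24 hr and replicate 3 of the WNK1-deficient group at 48 hr *Ptcra*, the pre-TCRα chain, was 2344 normalized counts in that 24 hr control against 59.2 and 115, and 574 in that 48 hr library against 18.2 and 22.5. Values are also given without these and replicate 3 of the controls at 3 hr, 3 libraries chosen with earlier results known, although *Ptcra* was not high in the last (1597 against 3993 and 1758 in its group). *Xist* lay between 10918 and 45584 in all libraries of 0 and 48 hr and between 0 and 13.8 in all of 3 and 24 hr, so the sex of the mice and the time cannot be told apart between these pairs of times. All 3 controls at 0 hr ran on sequencing lane 1 and all 4 WNK1-deficient libraries at 0 hr on lane 2, so there lane and genotype cannot be told apart. No later WNK1-deficient library ran on lane 2, and no control of 3 or 24 hr on lane 1. Lane therefore cannot be told apart from time in WNK1-deficient changes from 0 hr or in control changes to 3 and 24 hr. The interactions hold these changes too. With lane as a covariate, lane 2 is tied to other lanes by the controls at 48 hr alone (2 libraries on lane 2, 1 on lane 1).

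Levels below are normalized counts, which is the number of reads of a gene over the size factor the authors gave its library. Fold changes are differences of log2(normalized count + 1), which understate the change of low genes, with the standard error (SE) of the limma fit, and a gene is said to rise or fall, or to be called, when its adjusted p is under 0.05. Groups are apart when every library of one lies above every library of the other. At 0 hr 3 of the 9 genes were higher in WNK1-deficient thymocytes and none lower, where 11% of all tested genes were called higher and 11.1% lower, 22.1% in all. At 3 hr 3 were higher and none lower (5.75%, 3.43% and 9.18% of all genes), at 24 hr 4 and none (7.03%, 5.45% and 12.5%), and at 48 hr 2 and none (6.13%, 6.95% and 13.1%). The median fold change of the 9 genes was 0.84, 2.04, 2.23 and 0.45 in the order of time, and the 0 hr value was the same with *Klrd1*, at no control read, at its bound. Medians over all tested genes lay between -0.02 and 0.00313. Groups were apart with WNK1-deficient libraries higher for 3, 5, 8 and 2 of the 9 genes, where 19.4%, 14%, 17% and 11.5% of all genes were. Apart the other way was *Gzma* at 24 hr alone, where the shares of all genes were 21.1%, 14.2%, 16.9% and 11.8%. These 4 comparisons use different libraries, but the same estimate of the spread of each gene, from all 25 libraries. In bulk RNA, fewer cells that express a gene and less RNA per cell cannot be told apart.

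**Figure D1:**
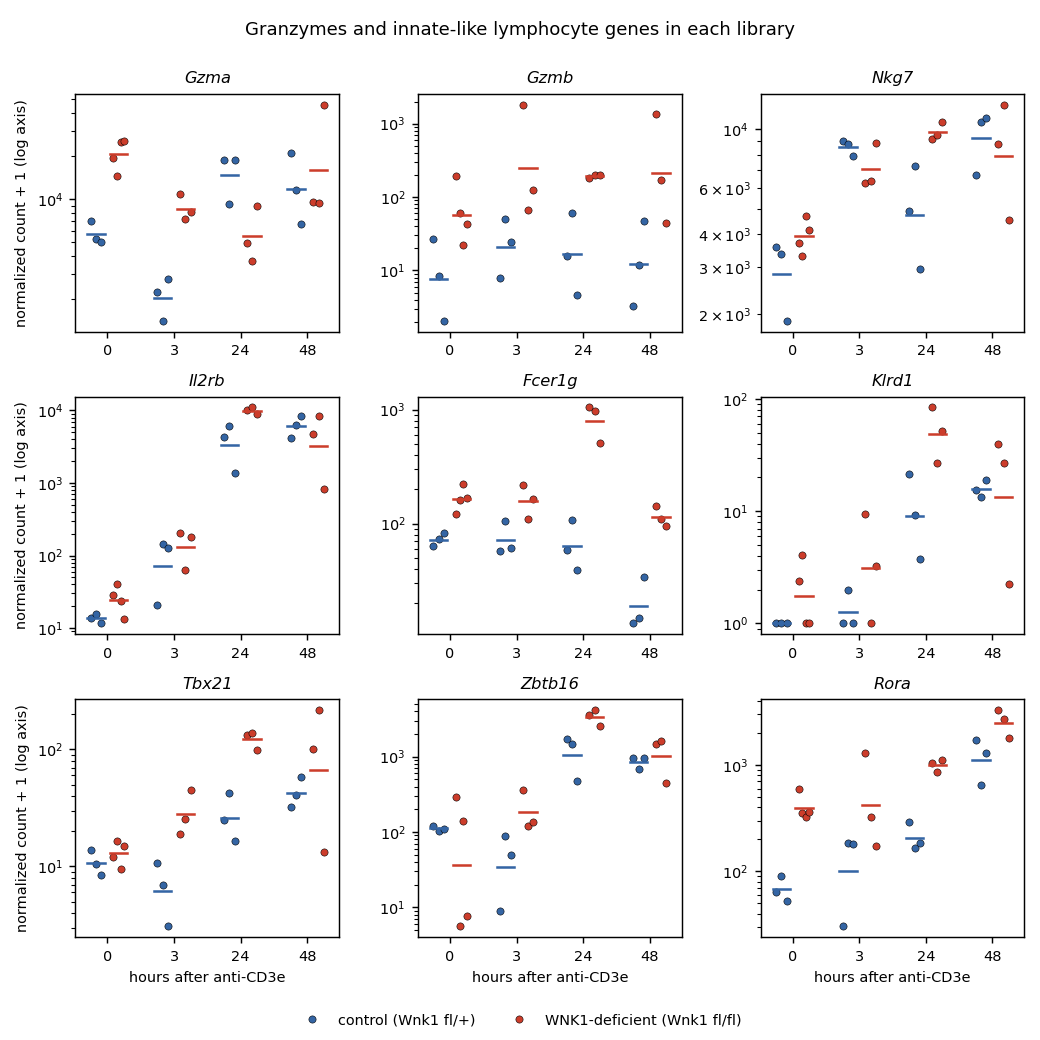
Normalized counts plus 1 (log axis) of the 9 genes against hours after anti-CD3ε (no injection at 0 hr), 1 point per library, control blue and WNK1-deficient red, with a bar at the mean of the log2 values. *Gzma* is higher in all WNK1-deficient libraries at 0 and 3 hr and lower in all of them at 24 hr, and *Il2rb* climbs from at most 39.2 at 0 hr to at least 1378 at 24 hr in both genotypes.

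*Gzma* (ENSMUSG00000023132, chromosome 13, 113093824 to 113100981 of GRCm38) encodes granzyme A, a trypsin-like granule protease. Per kilobase of exon it was, with *Nkg7*, one of the 2 highest of the 9 genes in all 8 groups, at 6114 normalized counts per kb in controls at 0 hr, where the third, *Fcer1g*, stood at 90.2. At 0 hr the normalized counts of *Gzma* were 6980.1, 5259 and 4983 in controls and 19279, 14573, 24921 and 25640.5 in WNK1-deficient thymocytes. All 4 WNK1-deficient libraries were above all 3 controls. The means were 5741 ± 1082 (SD, n = 3) and 21103 ± 5200.4 (n = 4), a log2 fold change of 1.86 (SE 0.46, adjusted p = 0.0069 by limma), and the call held without any 1 of the 7 libraries. With lane as a covariate the value was 0.644 and was not called (adjusted p = 0.545, limma). That fit takes the step between lanes 1 and 2 from the 3 controls at 48 hr, so it cannot separate lane from genotype at 0 hr.

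At 3 hr *Gzma* was at 2215, 1400.1 and 2731 in controls and at 10775, 7259 and 8056 in WNK1-deficient thymocytes, again with no overlap. The log2 fold change was 2.07 (SE 0.50, adjusted p = 0.0104, limma), and within lane 4, with 1 control and 3 WNK1-deficient libraries, the difference was 1.65. Without control replicate 2 or WNK1-deficient replicate 1 the call was lost, with an adjusted p of up to 0.0541. At 24 hr the order was the other way round: controls stood at 18721, 9202 and 18615 and WNK1-deficient libraries at 4952, 3696 and 8988. The groups were apart, but the difference of -1.43 (SE 0.50) did not pass the test (adjusted p = 0.0638, limma). It passed without control replicate 2 (adjusted p = 0.0353), without WNK1-deficient replicate 3, and with lane as a covariate (-1.29, adjusted p = 0.0165). At 48 hr the values were 21017, 11468 and 6691 against 9575, 9337 and 45643, which overlapped widely. The highest of them was WNK1-deficient replicate 3, the library of that group with high *Ptcra*.

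Over time, *Gzma* fell in controls from 0 to 3 hr by 1.48 on the log2 scale (SE 0.50, adjusted p = 0.0239, limma) and was above its 0 hr level at 24 hr by 1.38 (SE 0.50, adjusted p = 0.0365). The 3 hr call was lost without control replicate 1 at 0 hr or control replicate 2 at 3 hr, and the 24 hr call without any of the 3 controls at 0 hr or control replicate 1 or 3 at 24 hr. In WNK1-deficient thymocytes every library at 3 hr lay below every library at 0 hr (at most 10775 against at least 14573). That change was not called, nor by edgeR. It was called under some settings, among them only the groups compared (-1.26, adjusted p = 0.0027, limma) and DESeq2 (-1.28, adjusted p = 0.047). At 24 hr *Gzma* in WNK1-deficient thymocytes was below its 0 hr level by -1.91 (SE 0.46, adjusted p = 0.0032, limma). The genotype by time interaction, the WNK1-deficient change from 0 hr to 24 hr minus the control change, was -3.29 (SE 0.68, adjusted p = 0.0221). It was called for *Gzma* and *Fcer1g* among the 9 genes, where 0.658% of all tested genes were. For *Gzma* it was lost without any of 6 of the 13 libraries (control replicates 2 and 3 at 0 hr, control replicate 1 at 24 hr, WNK1-deficient replicate 4 at 0 hr and WNK1-deficient replicates 1 and 2 at 24 hr), with an adjusted p of up to 0.0886. It was -3.12 without those 3 libraries together (adjusted p = 0.0051) and -1.94, not called, with lane as a covariate. The control change from 0 to 24 hr was -1.16 with lane as a covariate, the opposite sign. Of the 8 group means ordered from the highest (WNK1-deficient, 48 hr) to the lowest (control, 3 hr), neighbours overlapped except at the foot, where all 3 controls at 3 hr lay below all 3 controls at 0 hr.

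*Gzmb* (ENSMUSG00000015437, chromosome 14, 56258836 to 56262334) encodes granzyme B, the protease that cleaves caspases in target cells. It was far lower than *Gzma*, at 8.05 normalized counts per kb in controls at 0 hr, and its SE was the largest of the 9 genes in every comparison. At 3 hr it was at 6.87, 48.5 and 23.04 normalized counts in controls and at 1804, 65.7 and 124 in WNK1-deficient thymocytes. At 24 hr it was at 14.8, 59.9 and 3.67 in controls and at 179, 196 and 202 in WNK1-deficient thymocytes. At both times the groups were apart, and replicate 1 of the WNK1-deficient group at 3 hr stood far above the rest. At 48 hr the values were 2.24, 10.9 and 46.1 against 1339, 167 and 43.1, where the lowest WNK1-deficient library lay below the highest control.

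The log2 fold changes of *Gzmb* were 2.90 (SE 1.25), 3.55 (SE 1.34), 3.55 (SE 1.34) and 4.14 (SE 1.34) at 0, 3, 24 and 48 hr. Of these the difference at 48 hr passed the test (adjusted p = 0.0447, limma), and the others did not (0.0999, 0.105 and 0.0874). The 48 hr call was lost without control replicate 1 or 2 or WNK1-deficient replicate 1 or 2 (adjusted p up to 0.221) and with lane as a covariate (3.33, adjusted p = 0.358). It was lost as well with no filter, quantile normalization, no trend, only the groups compared or the replicate block (adjusted p = 0.0505 to 0.15). On recovered reads edgeR and DESeq2 also called the 3 hr difference, at 4.67. The 24 hr difference was called with lane as a covariate (3.9, adjusted p = 0.0462, limma) and without control replicate 2 (adjusted p = 0.0449). The 0 hr difference was called with only the groups compared (adjusted p = 0.0425, limma). None of the 6 changes over time within a genotype passed for *Gzmb*. Its 8 group means ran from 664.7 (WNK1-deficient, 3 hr) to 11.4 (control, 0 hr), with the 4 WNK1-deficient groups above the 4 control groups and every neighbour in that order overlapping.

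*Nkg7* (ENSMUSG00000004612, chromosome 7, 43437138 to 43438246) encodes a membrane protein of cytotoxic granules that acts in their release. In controls it rose from 3573, 3379 and 1883 at 0 hr to 9049, 8792 and 7934 at 3 hr, with no overlap. The change was 1.60 (SE 0.32, adjusted p = 6.7e-04, limma), and at 48 hr it was 1.70 (adjusted p = 2.2e-04). In WNK1-deficient thymocytes the changes from 0 hr were 0.84 at 3 hr (adjusted p = 0.0453), 1.31 at 24 hr (adjusted p = 0.0021) and 1.01 at 48 hr (adjusted p = 0.0165). The 3 hr call in WNK1-deficient thymocytes was lost without any of 6 of the 7 libraries (WNK1-deficient replicate 3 at 0 hr excepted), and the 48 hr call without WNK1-deficient replicate 1 or 2 at 48 hr. Between the genotypes it differed at 24 hr, with 4887, 7244 and 2957 in controls and 9153, 9482 and 10619 in WNK1-deficient libraries. These groups were apart, and the difference was 1.05 (SE 0.32, adjusted p = 0.0365). The differences within lanes 3 and 4 were 1.66 and 0.835, and the call was lost without any of 5 of the 6 libraries (control replicate 2 excepted, adjusted p up to 0.192) without those 3 libraries together (0.71, adjusted p = 0.102), and without a filter, with only the groups compared and by edgeR (adjusted p = 0.0525 to 0.0854). All neighbours in the order of the 8 group means overlapped.

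The 250 bases before the start of the 3 granule genes are shown because they hold matches to the motifs of factors known to act on such genes, while *Gzma*, *Gzmb* and *Nkg7* differed from each other in time course. They are RefSeq sequences on GRCm38.p6, given 5′ to 3′ on the strand of the gene, with motif matches in capitals: *Gzma* chr13:113100982-113101231 (minus strand), *Gzmb* chr14:56262335-56262584 (minus strand) and *Nkg7* chr7:43436888-43437137 (plus strand). Motifs were the RUNX site TGTGGT, the T-box motif GTGTGA, the AP-1 site TGANTCA and the ROR motif AGGTCA, searched on both strands. The AP-1 site matches itself on the other strand and is counted once, and no match overlapped one of another motif.
Gzma: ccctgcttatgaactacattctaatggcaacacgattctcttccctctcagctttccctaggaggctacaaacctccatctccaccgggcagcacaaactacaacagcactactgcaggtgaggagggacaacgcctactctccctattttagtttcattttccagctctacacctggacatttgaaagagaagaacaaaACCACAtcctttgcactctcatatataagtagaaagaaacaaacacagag
Gzmb: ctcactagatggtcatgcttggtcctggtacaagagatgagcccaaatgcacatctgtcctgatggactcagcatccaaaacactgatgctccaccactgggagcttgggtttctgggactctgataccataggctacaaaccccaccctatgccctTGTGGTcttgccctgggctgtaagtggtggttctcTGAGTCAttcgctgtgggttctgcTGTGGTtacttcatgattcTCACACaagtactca
Nkg7: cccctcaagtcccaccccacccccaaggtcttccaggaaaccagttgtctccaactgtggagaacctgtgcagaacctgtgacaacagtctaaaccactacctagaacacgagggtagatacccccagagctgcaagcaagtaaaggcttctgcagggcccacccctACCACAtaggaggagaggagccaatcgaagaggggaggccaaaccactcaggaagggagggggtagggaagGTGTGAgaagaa

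A RUNX match begins 50 bases before the start in *Gzma*, 93 and 34 bases before it in *Gzmb* and 83 bases before it in *Nkg7*. *Gzmb* has an AP-1 match 58 bases before the start and a T-box match 15 bases before it, and *Nkg7* a T-box match 12 bases before it. Of the 9 genes 6 had a promoter in the table, and of these 6 the RUNX site was in 3, the T-box motif in 2, the AP-1 site in 1 and the ROR motif in none. The shares over 32851 promoters of the same length were 14%, 12.3%, 6.75% and 14%. A match is a stretch of letters and says nothing of binding in these cells.

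*Il2rb* (ENSMUSG00000068227, chromosome 15, 78479256 to 78511621) encodes IL-2Rβ, the chain that IL-2 and IL-15 share and that NK cells and many innate-like T cells need. Its change from 0 hr was the largest of the 9 genes at 24 and 48 hr in both genotypes. In controls its normalized counts were 12.9, 14.8 and 10.6 at 0 hr and 19.6, 143 and 127 at 3 hr. They reached 4288, 6138 and 1378 at 24 hr, and 4148, 6348 and 8274 at 48 hr. In WNK1-deficient thymocytes they were 27.7, 39.2, 22.5 and 12.3, then 205, 61.4 and 179.9, then 10041, 10998 and 8882, and at last 4727, 8353 and 825. Every library of a later time lay above every library of 0 hr of its genotype.

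From 0 hr the log2 fold changes of *Il2rb* in controls were 2.41 at 3 hr, 7.92 at 24 hr and 8.79 at 48 hr (SE 0.75, adjusted p = 0.0158, 1.2e-07 and 1.6e-08, limma). In WNK1-deficient thymocytes they were 2.44, 8.67 and 7.03 (SE 0.70, adjusted p = 0.0149, 1.5e-08 and 5.3e-07). The control call at 3 hr was lost without control replicate 2 or 3 at 3 hr, and the WNK1-deficient one without WNK1-deficient replicate 1 or 3 at 3 hr. Between the genotypes *Il2rb* passed the test at no time: the differences were 0.84, 0.87, 1.59 and -0.91, and the groups were apart at 24 hr alone (adjusted p = 0.178). With lane as a covariate the 24 hr difference was 1.91 and was called (adjusted p = 0.0467, limma). Both libraries at the foot of their groups late in the course, replicate 3 of the controls at 24 hr (1378) and replicate 3 of the WNK1-deficient group at 48 hr (825), are the ones with high *Ptcra*.

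**Figure D2:**
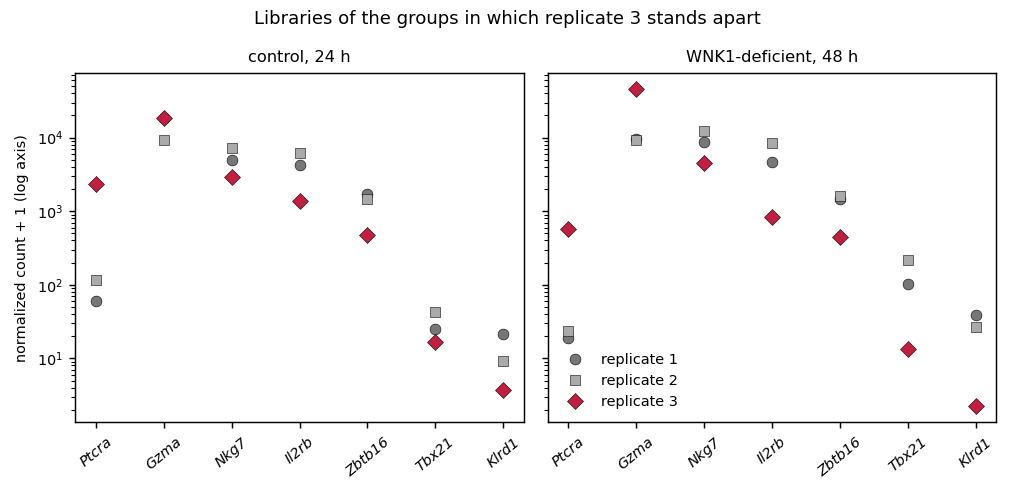
Normalized counts plus 1 (log axis) of *Ptcra* and 6 of the genes in the 3 control libraries at 24 hr (left) and the 3 WNK1-deficient libraries at 48 hr (right). In replicate 3, drawn as red diamonds, *Ptcra* is the highest of the group (2344 and 574) while *Nkg7*, *Il2rb*, *Zbtb16*, *Tbx21* and *Klrd1* are the lowest in both groups.

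*Fcer1g* (ENSMUSG00000058715, chromosome 1, 171229572 to 171234349) encodes FcRγ, an adaptor with an ITAM that carries the signal of Fc receptors and of several NK receptors and can pair with the TCR complex. It was the one gene of the 9 whose genotypes were apart at all 4 times. At 24 hr it was at 58.4, 106 and 38.5 normalized counts in controls and at 1044, 972 and 506 in WNK1-deficient thymocytes, and at 48 hr at 12.3, 13.8 and 33.0 against 142, 108 and 93.5. At 0 hr the values were 62.1, 71.8 and 82.5 against 122, 161, 219.6 and 167, and at 3 hr 56.9, 105 and 60.7 against 217, 110.0 and 164. Every WNK1-deficient library lay above every control of its time.

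The log2 fold changes of *Fcer1g* were 1.181 at 0 hr (SE 0.37, adjusted p = 0.0276, limma), 1.13 at 3 hr (SE 0.40, adjusted p = 0.0825), 3.67 at 24 hr (SE 0.40, adjusted p = 7.4e-06) and 2.60 at 48 hr (SE 0.40, adjusted p = 2.9e-04). The differences within lanes were 1.36 at 3 hr (lane 4), 4.67 and 2.67 at 24 hr (lanes 3 and 4) and 1.88 at 48 hr (lane 1). The 24 and 48 hr calls held without any 1 library, and the 0 hr call was lost without control replicate 1 or 2 or WNK1-deficient replicate 3 or 4 (adjusted p up to 0.109) and with the replicate block (adjusted p = 0.0712). With lane as a covariate the 48 hr difference was 1.88 and was not called (adjusted p = 0.067). On recovered reads DESeq2 called the 3 hr difference, at 1.15 (adjusted p = 0.029), and edgeR did not. Over time *Fcer1g* rose in WNK1-deficient thymocytes from 0 to 24 hr by 2.28 (SE 0.37, adjusted p = 7.8e-05), and in controls it fell from 0 to 48 hr by 1.95 on the log2 scale (SE 0.40, adjusted p = 4.9e-04). The interaction at 24 hr was 2.48 (SE 0.55, adjusted p = 0.0333). It was lost without any of 10 of the 13 libraries (WNK1-deficient replicate 3 at 0 hr, WNK1-deficient replicate 3 at 24 hr and control replicate 2 at 24 hr excepted), with an adjusted p of up to 0.112, without those 3 libraries together (2.15, adjusted p = 0.0506), with the replicate block (adjusted p = 0.0901) and with lane as a covariate (1.17). The WNK1-deficient group at 24 hr was apart from the next lower group mean, and the control group at 48 hr lay below all others.

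**Figure D3:**
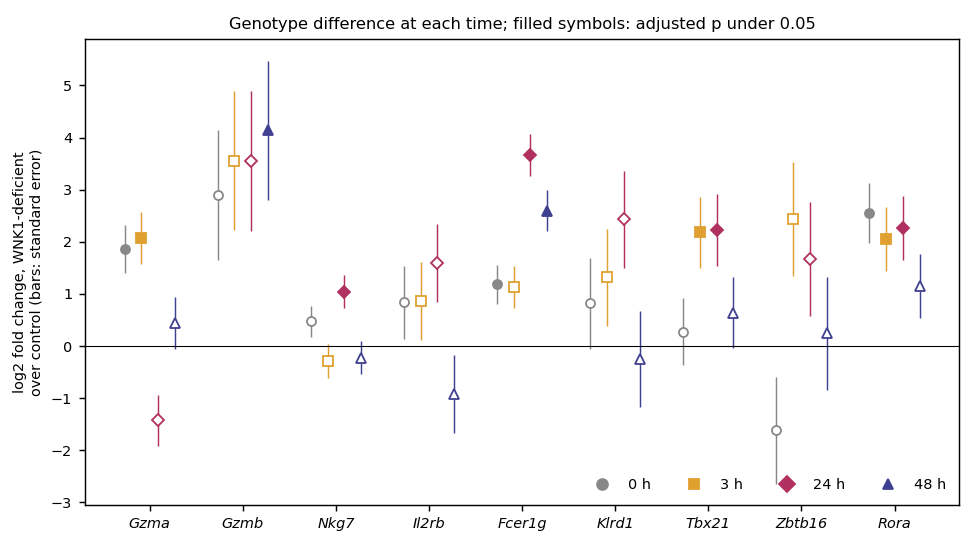
Log2 fold change of WNK1-deficient over control thymocytes (points, with the standard error of the limma fit as bars) for the 9 genes at 0, 3, 24 and 48 hr; filled symbols passed an adjusted p of 0.05. *Gzma* is above 0 at 0 and 3 hr and at -1.43 at 24 hr, *Fcer1g* reaches 3.67 at 24 hr, and the bars of *Gzmb* and *Zbtb16* are among the longest.

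*Klrd1* (ENSMUSG00000030165, chromosome 6, 129588092 to 129598775) encodes CD94, the chain that pairs with NKG2 proteins on NK cells. Per kilobase it was the lowest of the 9 genes in all 8 groups, and it was above 0 in 17 of the 25 libraries. No control library held a read of it at 0 hr, and the WNK1-deficient libraries of that time were at 1.38, 3.07, 0 and 0 normalized counts. At 24 hr it was at 20.6, 8.32 and 2.75 normalized counts in controls and at 83.1, 25.99 and 51.1 in WNK1-deficient thymocytes, where the groups were apart. That difference was 2.43 (SE 0.93, adjusted p = 0.0918, limma) and did not pass the test, nor did those at 0, 3 and 48 hr (1.32 at 3 hr, -0.25 at 48 hr, and 5 reads in 4 libraries against none in the 3 controls before injection). The 24 hr difference was called with lane as a covariate (2.6, adjusted p = 0.0374, limma) and with a pseudocount of 5 (1.95, adjusted p = 0.0241).

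Against a floor of 3 reads over the control group at 0 hr, the control mean of *Klrd1* was at least 9.65-fold higher at 24 hr and at least 13.7-fold higher at 48 hr, and both changes were called (adjusted p = 0.0114 and 0.0016, limma). In WNK1-deficient thymocytes the changes from 0 hr were 4.80 at 24 hr (SE 0.87, adjusted p = 2.3e-04) and 2.91 at 48 hr (adjusted p = 0.0163). The control call at 24 hr was lost without control replicate 1 at 24 hr, and the WNK1-deficient call at 48 hr without WNK1-deficient replicate 1 or 2 at 48 hr. WNK1-deficient replicate 3 at 48 hr, at 1.23, stood near the 0 hr level. All neighbours in the order of the group means of *Klrd1* overlapped.

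*Tbx21* (ENSMUSG00000001444, chromosome 11, 97098007 to 97115331) encodes T-BET, the T-box factor of type 1 effector cells and NK cells. At 0 hr it was low in all libraries, between 7.40 and 15.4 normalized counts. At 3 hr it was at 9.81, 5.93 and 2.09 in controls and at 17.8, 24.3 and 44.4 in WNK1-deficient thymocytes, and at 24 hr at 23.8, 41.6 and 15.6 against 131, 138 and 97.0. The genotypes were apart at both times, with log2 fold changes of 2.18 (SE 0.68, adjusted p = 0.0482, limma) and 2.23 (SE 0.68, adjusted p = 0.0362). Within lanes the differences were 3.17 at 3 hr (lane 4) and 3.03 and 1.59 at 24 hr (lanes 3 and 4). Both calls lie near the threshold: each was lost without any of 5 of its 6 libraries, control replicate 1 excepted at 3 hr and control replicate 2 at 24 hr, with adjusted p of up to 0.194 and 0.133. The 3 hr call was also lost with a pseudocount of 5, no filter, quantile normalization, no trend or only the groups compared (adjusted p = 0.0516 to 0.109), and the 24 hr call with no filter or quantile normalization (0.0641 and 0.0529).

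At 48 hr *Tbx21* was at 31.4, 39.8 and 57.1 in controls and at 100.5, 215 and 12.3 in WNK1-deficient thymocytes. Of the WNK1-deficient libraries 2 lay above all controls, and replicate 3 below them. The difference was 0.64 (SE 0.68) and was not called. Without that replicate it was 1.80 (adjusted p = 0.0374), and without all 3 of those libraries also 1.80 (adjusted p = 0.0129). From 0 hr *Tbx21* rose in WNK1-deficient thymocytes by 3.23 at 24 hr (adjusted p = 5.4e-04, limma) and 2.36 at 48 hr (adjusted p = 0.0090), and in controls by 1.99 at 48 hr (adjusted p = 0.0229). The control call was lost without control replicate 2 or 3 at 0 hr or control replicate 3 at 48 hr, and the WNK1-deficient one at 48 hr without WNK1-deficient replicate 1 or 2 of that time.

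*Zbtb16* (ENSMUSG00000066687, chromosome 9, 48651797 to 48836225) encodes PLZF, the factor that directs NKT and other innate-like cells. Its WNK1-deficient libraries at 0 hr fell into a high and a low pair, at 286 and 138 and at 4.61 and 6.74 normalized counts, around the controls at 121, 102 and 109. At 24 hr it was at 1727, 1476 and 469.8 in controls and at 3623, 4144 and 2535 in WNK1-deficient thymocytes, which were apart. At 48 hr the values were 972, 676 and 958 against 1474, 1597 and 441. No genotype difference of *Zbtb16* passed the test: they were -1.62, 2.43, 1.66 and 0.24 in the order of time (SE 1.02 at 0 hr and 1.09 later, adjusted p = 0.267, 0.18, 0.354 and 0.916, limma). From 0 hr it rose in controls by 3.25 at 24 hr (adjusted p = 0.0257) and 2.94 at 48 hr (adjusted p = 0.0347), and in WNK1-deficient thymocytes by 6.54 (adjusted p = 4.9e-05) and 4.80 (adjusted p = 0.0015). The control calls were lost without nearly any 1 library (5 of 6 at 24 hr, control replicate 3 at 24 hr excepted, and 6 of 6 at 48 hr), and the WNK1-deficient ones held without any 1 of the 7 but were lost with lane as a covariate (7.87, adjusted p = 0.0734, and 5.16, adjusted p = 0.182). Means of 24 and 48 hr lay apart from those of the earlier times, and the WNK1-deficient group at 24 hr was above every other.

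*Rora* (ENSMUSG00000032238, chromosome 9, 68653404 to 69388246) encodes RORα, the nuclear receptor that innate lymphoid cells of type 2 need. At 0 hr it was at 63.3, 89.7 and 51.8 normalized counts in controls and at 589, 350.3, 327 and 361 in WNK1-deficient thymocytes. The groups were apart, with means of 68.3 ± 19.4 (SD, n = 3) and 407 ± 122 (n = 4). The log2 fold change was 2.55 (SE 0.57, adjusted p = 0.0033, limma), called without any 1 of the 7 libraries. It was 2.86 but not called with lane as a covariate (adjusted p = 0.137, limma), a fit that cannot separate lane from genotype at 0 hr.

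At 3 hr *Rora* was at 29.4, 185 and 180.1 in controls and at 1286, 320.1 and 173 in WNK1-deficient thymocytes, and at 24 hr at 293, 165 and 183 against 1038, 865 and 1114. The groups overlapped at 3 hr and were apart at 24 hr. The differences were 2.04 at 3 hr (SE 0.61, adjusted p = 0.0395, limma) and 2.27 at 24 hr (SE 0.61, adjusted p = 0.0189). The 3 hr call was lost without control replicate 1 or WNK1-deficient replicate 1 or 2 (adjusted p up to 0.254), with lane as a covariate (1.65, adjusted p = 0.197), and with no filter, no trend, only the groups compared or the replicate block (adjusted p = 0.0506 to 0.271). The 24 hr call was lost without control replicate 3 or WNK1-deficient replicate 1 or 3 (adjusted p up to 0.0618). Within lanes the differences were 1.2 at 3 hr (lane 4) and 2.37 and 2.34 at 24 hr (lanes 3 and 4). At 48 hr, 1709, 641 and 1296 in controls and 3284, 2701 and 1787 in WNK1-deficient thymocytes were apart, but the difference of 1.16 did not pass (adjusted p = 0.226). From 0 hr *Rora* rose in controls by 1.62 at 24 hr (adjusted p = 0.0464), a call lost without any 1 of the 6 libraries, and by 4.06 at 48 hr (adjusted p = 2.0e-05), and in WNK1-deficient thymocytes by 2.67 at 48 hr (adjusted p = 0.0016). Its interactions were -0.51, -0.28 and -1.39 at 3, 24 and 48 hr and were not called.

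Counted over the 9 genes, 2 rose and 1 fell in controls from 0 to 3 hr (18.4% of all tested genes rose and 18.5% fell), 5 rose to 24 hr (17% and 16.9%), and 6 rose and 1 fell to 48 hr (21.6% and 20.8%). In WNK1-deficient thymocytes 2 rose to 3 hr (13.3% and 11.3% of all genes), 6 rose and 1 fell to 24 hr (16% and 14.3%), and 6 rose to 48 hr (14.3% and 12.5%). The 3 comparisons of a genotype share its 0 hr libraries. The median change of the 9 genes was 0.84, 2.28 and 2.36 in WNK1-deficient thymocytes at 3, 24 and 48 hr. In controls it was 1.38 and 1.99 at 24 and 48 hr, the same with *Klrd1* at its bound, and at 3 hr the middle value was that of *Klrd1* itself, at 1 read against none, so no median is given. With lane as a covariate the WNK1-deficient calls were lost for *Nkg7* and *Il2rb* at 3 hr, for *Nkg7*, *Fcer1g* and *Zbtb16* at 24 hr and for all but *Il2rb* at 48 hr, and the control calls for *Gzma*, *Zbtb16* and *Rora* at 24 hr and *Fcer1g* and *Zbtb16* at 48 hr. The interaction was called for none of the 9 genes at 3 hr or 48 hr (0.0707% and 1.36% of all genes, limma). At an unadjusted p under 0.05 there were 1 and 2 of the 9, and edgeR and DESeq2 called 0 at both times.

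Lists of genes that work with the 9 were counted in the same fit, where the shares of all genes called higher were 11%, 5.75%, 7.03% and 6.13% in the order of time and lower 11.1%, 3.43%, 5.45% and 6.95%. A count of 1 in a list is near these shares. Of 20 other genes of cytotoxic granules and death ligands 14 were tested, and in WNK1-deficient thymocytes 3 were higher and 2 lower at 0 hr, 1 higher at 3 hr, 4 higher at 24 hr, and 1 higher and 1 lower at 48 hr. *Ctsw*, a cathepsin of cytotoxic cells, was at 1462, 2134 and 637 normalized counts in controls and at 4831, 4913 and 3895 in WNK1-deficient thymocytes at 24 hr, a difference of 1.85 (adjusted p = 0.0058, limma). *Unc13d*, which acts in granule priming, was lower at 48 hr, by -1.03 (adjusted p = 0.0049). *Ifng*, the interferon-γ gene, held no read in the 3 controls at 0 hr and was at 19.4, 22.3, 12.7 and 29.4 in the WNK1-deficient libraries (adjusted p = 5.6e-07); it is counted again among the type 1 effector genes. Perforin (*Prf1*) did not pass the test at any time. The median fold changes of the list were 0.37, -0.07, 0.37 and -0.30.

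Of 20 further NK receptor genes 9 were tested, and 3, 2, 5 and 1 were higher in WNK1-deficient thymocytes at 0, 3, 24 and 48 hr, and none lower, with median fold changes of 1.07, 1.46, 2.39 and 1.201. *Klrg1*, an inhibitory lectin receptor, was at 2.47, 1.66 and 5.51 normalized counts in controls and at 49.7, 105 and 49.8 in WNK1-deficient libraries at 24 hr (4.05, adjusted p = 0.0019, limma). *Klrk1*, which encodes NKG2D, was at 5.75, 3.33 and 1.84 against 119, 29.04 and 34.1 (3.52, adjusted p = 0.0060), and *Slamf7* differed at 3 hr by 3.26 (adjusted p = 0.0347). For both lectin receptors at 24 hr every WNK1-deficient library lay above every control.

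Around IL-2Rβ, 14 of 15 genes of IL-2 and IL-15 signals were tested: 3 were higher and 1 lower at 0 hr, none was called at 3 hr by limma, edgeR or DESeq2 (2 at an unadjusted p under 0.05), and 5 and 2 were higher at 24 and 48 hr. Among them *Socs2*, a feedback inhibitor of STAT5 signals, differed by 2.44 at 48 hr (adjusted p = 0.0016), *Il15* by 1.86 at 0 hr (adjusted p = 0.0105) and *Cish*, another such inhibitor, by 1.69 at 24 hr (adjusted p = 0.0168). Of 15 genes of ITAM adaptors, their receptors and kinases 12 were tested, with 1 higher and 4 lower at 0 hr, 1 higher and 2 lower at 24 hr, and none called at 3 and 48 hr by limma, edgeR or DESeq2 (2 and 0 at an unadjusted p under 0.05). *Tyrobp*, the adaptor DAP12, was at 34.5, 94.8 and 45.9 normalized counts in controls and at 177, 174 and 117 in WNK1-deficient thymocytes at 24 hr (1.51, adjusted p = 0.0261), while the CD3 chain *Cd3d* was lower at 0 hr by -1.38 (adjusted p = 2.8e-05) and the kinase *Syk* by -1.01 (adjusted p = 0.0064).

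Beside *Tbx21*, 17 of 19 genes of T-BET and type 1 effector cells were tested, and 5, 2, 8 and 1 were higher in WNK1-deficient thymocytes in the order of time, with none lower. The median fold changes were 0.64, 0.29, 1.79 and -0.19. The chemokine gene *Xcl1* was at 8.22, 21.6 and 7.34 normalized counts in controls and at 1117, 1160.2 and 237 in WNK1-deficient thymocytes at 24 hr (5.81, adjusted p = 2.5e-04, limma), *Il18rap*, a chain of the IL-18 receptor, differed by 4.56 at 24 hr (adjusted p = 0.0039), and *Ccl5* by 5.64 at 0 hr (adjusted p = 1.1e-05). Of 21 factor genes of innate-like lymphocytes, all tested, 8 were higher and 1 lower at 0 hr, 2 higher at 3 hr, 5 higher and 2 lower at 24 hr, and 5 higher and 3 lower at 48 hr. At 24 hr *Zbtb7b*, the ThPOK gene, was higher by 5.001 (adjusted p = 3.7e-05), and at 0 hr the ETS factor gene *Etv5* was higher by 2.46 (adjusted p = 1.8e-05). Of 22 receptor and cytokine genes of these cells 12 were tested, with 5, 2, 2 and 2 higher and none lower. *Cd69*, the early activation antigen, was at 58.6, 78.1 and 55.0 in controls and at 3844, 2815, 2569 and 3361 in WNK1-deficient thymocytes at 0 hr (5.599, adjusted p = 2.6e-10), *Itgae* differed by 2.51 at 3 hr (adjusted p = 0.0038) and *Ccr9* by 1.64 at 0 hr (adjusted p = 6.0e-04). In all of these the groups were apart.

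Markers of several cell types moved with some of the differences, and their part in the results was not tested. The 6 defining NK genes (*Ncr1*, *Klrb1c*, *Klre1*, *Eomes*, *Itga2* and *Prf1*) summed to 4.23 to 17.9 normalized counts in controls and 14.1 to 92.9 in WNK1-deficient thymocytes at 0 hr, 115 to 271 and 94.3 to 204 at 3 hr, 175 to 685 and 843 to 1278 at 24 hr, and 607 to 1251 and 167 to 1077 at 48 hr. Of the 5 that were tested limma called 2, both higher in WNK1-deficient thymocytes at 24 hr. These were *Ncr1* by 3.17 (adjusted p = 0.0164, limma) and *Eomes* by 3.62 (adjusted p = 0.0049). Both are counted above already, *Ncr1* among the NK receptor genes and *Eomes* among the type 1 effector genes. Other genes, among them *Klrb1c*, *Prf1*, *Blk*, *Sox13*, *Il17rb* and *Cd3e*, also stand in both a list above and a marker set, so these counts are not independent. At 0, 3 and 48 hr limma and edgeR called none of the 5, DESeq2 called 1, 0 and 0, and 0, 2 and 1 had an unadjusted p under 0.05. The sums were apart at 24 hr, the time at which 8 of the 9 genes were apart in the same direction, and overlapped at the other 3 times. The sum of 10 DN3 and DN4 genes was at 513379 to 558879 in controls and at 310911 to 360645 in WNK1-deficient thymocytes at 0 hr, where *Gzma*, *Fcer1g* and *Rora* were called higher, with *Cd3e*, *Notch3* and *Lck* of the 10 lower. At 24 hr it was at 125130.3 to 236737 and at 81705 to 103783, with 6 of the 10 lower. These sums were apart at 0 and 24 hr and overlapped at 3 and 48 hr.

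**Figure D4:**
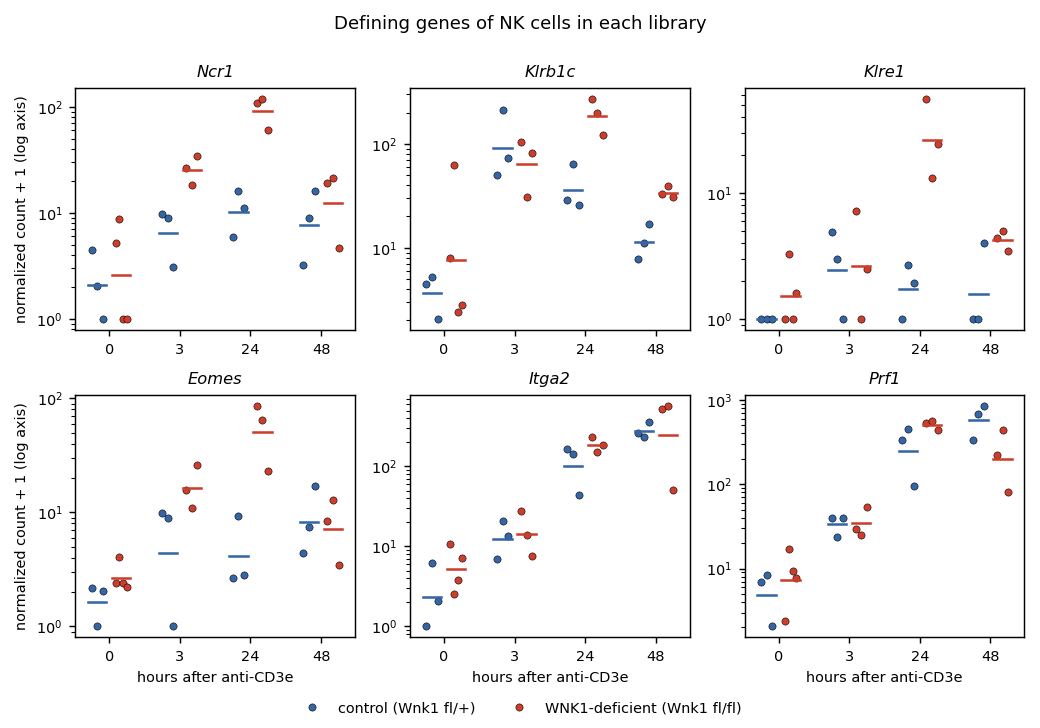
Normalized counts plus 1 (log axis) of 6 genes that define NK cells against hours after anti-CD3ε, 1 point per library, control blue and WNK1-deficient red, with a bar at the mean of the log2 values. *Ncr1*, *Klrb1c*, *Klre1* and *Eomes* lie above all controls in the 3 WNK1-deficient libraries at 24 hr, where *Prf1* and *Itga2* overlap.

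Among genes of mast cells and basophils, which use FcRγ, *Fcer1a* was at 0 in all 3 WNK1-deficient libraries at 24 hr, and *Ms4a2* and *Mcpt8* did not exceed 1.31 and 1.48 there, while *Cpa3* was at 33422 to 43457 against 2603 to 5627 in controls (3.29, adjusted p = 0.0087, limma). The sums of the 4 genes, nearly all *Cpa3*, were 631 to 4218 in controls and 3063 to 9883 in WNK1-deficient thymocytes at 0 hr, 844 to 17175 and 1218 to 3044 at 3 hr, and 800.0 to 2144 and 9779 to 15657 at 48 hr. The ILC3 genes *Il22* and *Il17a* were at 0 in all 25 libraries, and of 5 ILC2 genes *Il17rb* alone could be tested and was higher at 48 hr. The ILC2 sums lay at 2838 to 3962 in controls and at 4477 to 5206 in WNK1-deficient thymocytes at 24 hr. The other ILC2 genes fell under the filter, so *Il17rb* made up most of these sums. At 24 hr limma, edgeR and DESeq2 did not call it, and its unadjusted p was under 0.05 (limma). Of the γδ T cell list 3 of 4 genes were matched and tested, and 1 was higher at 0 hr, none at 3 hr, 2 at 24 hr and 3 at 48 hr. Rag1-deficient thymocytes do not rearrange TCR genes, so these are transcripts of the listed genes and do not count cells with a γδ TCR. The sums of this list were 48627 to 61595 in controls and 42746 to 48019 in WNK1-deficient thymocytes at 0 hr. At 3 hr they were 26454 to 34334 and 24179 to 30026, at 24 hr 15219 to 23058 and 25425 to 33972, and at 48 hr 24219 to 25964 and 35837 to 44869. Of 4 dendritic cell genes *Itgax* was tested and was higher at 24 hr, where the sums were 21.4 to 69.9 and 113 to 269. Of 7 macrophage, monocyte and neutrophil genes 4 were tested, and *Lyz2* and *Itgam* were lower at 0 hr. Their sums were 1840 to 2354 in controls and 496 to 1071 in WNK1-deficient thymocytes there, and overlapped later. The sums of 3 early progenitor genes were 1376 to 1530 and 2417 to 3516 at 0 hr, 689 to 1287 and 1587 to 2290 at 24 hr, and 827 to 1531 and 2016 to 3811 at 48 hr. They overlapped at 3 hr. Of these 3 genes 2 were tested, and limma and edgeR called none at any time. DESeq2 called 1 at 24 hr and 1 at 48 hr, and at each of these times 1 had an unadjusted p under 0.05 (limma). The sort took Thy1.2+ cells and left out CD44+ cells, and whether cells of other types passed it was not tested.

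For each of the 9 genes the 3 tested genes most like it were found by Pearson's r of log2(normalized count + 1) over the 25 libraries, which share their time course and lanes. The closest were *Msn*, *Ly9* and *Gimap4* to *Il2rb* (r = 0.982, 0.98 and 0.977), *Rfx3* to *Rora* (0.941), *Cers4* to *Tbx21* (0.94), *Fgl2* to *Klrd1* (0.928), *Il2rg* to *Nkg7* (0.911), *Igfbp4* to *Zbtb16* (0.884), *Rnf216* to *Fcer1g* (0.87), *Serpina3f* to *Gzmb* (0.834) and *Ms4a4d* to *Gzma* (0.80). Among the 9 genes themselves *Il2rb* and *Klrd1* were most alike (r = 0.904), and *Gzma* and *Nkg7* least (-0.354). *Gzma* had no r above 0.413 with any of the other 8.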

How the data were processed

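RNA sequencing measured transcripts in 25 libraries of sorted mouse thymocytes, grouped by the genotype and time in their labels. The authors trimmed reads with Trimmomatic 0.36, aligned them to GRCm38 with STAR 2.5.2a, counted genes with RSEM 1.2.31, which shares out reads that fit several genes, and divided the counts by DESeq2 1.18.1 size factors in R 3.4.1, and they deposited these values, the signal used here. Divided by the smallest step of its library, 100% of values in all 25 libraries were whole within 0.001, although in 2 libraries the step is too near 1 to tell. The recovered reads gave the depth, 22527777 to 57304830 reads per library (median 36567984), and the count tests.

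Genes with a mean of at least 10 over the libraries (14141, of which 12973 had a symbol) were tested on the scale of log2(value + 1) with limma 3.58.1 (R 4.3.3), 1 mean per group, with a trend on mean expression and Benjamini-Hochberg adjustment over all of them, at 0.05. The values are scaled, so limma was used where the study used DESeq2. The script was tested on simulated data. Levels per kb use exon lengths of GENCODE M1 on NCBIM37, an older build than that of the files, and coordinates are those of RefSeq on GRCm38.p6. Besides the 9 genes and *Wnk1* the text names up to 3 genes of each of 7 lists (130 genes in all), those with the largest absolute fold change among the called, the markers of other cell types, and the genes most like each of the 9. A gene that this rule names is not reported here. The members and lists were chosen with earlier results of these data known. Replicates differed by more than counting noise (27 pairs, chi-square per degree of freedom of 21.9 or more).

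The settings varied in turn were the pseudocount (0.5 or 5), the filter (none, or a mean of 100 and above), the scaling (quantiles, upper quartile or total made equal), the trend, the groups in the fit, a replicate block, lane as a covariate, and which libraries entered, with 3 omitted together or each left out in turn. The recovered reads were also tested with the quasi-likelihood test of edgeR 4.0.16 under TMM and with DESeq2 1.42.0. On the recovered reads edgeR called 3073, 1339, 1719 and 1763 genes between the genotypes at 0, 3, 24 and 48 hr, where limma called 3124, 1298, 1765 and 1850. DESeq2 called more at each time, 3627, 1817, 2239 and 2351. Figures were drawn with matplotlib 3.10.9 in Python 3.11.15, with pandas 2.3.3 and numpy 2.4.6.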

Additional observations from a re-analysis of the deposited data

Results flagged for a closer look

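*Rora* in the WNK1-deficient group at 0 hr had 1 library, at 589 normalized counts, whose distance from the nearest of the other 3 took up most of the range of the group. The 9 genes were looked at in this group, the one with 4 libraries, and chance alone singles out about 1 in 20 such groups. The response of *Gzma* from 0 to 24 hr differed between the genotypes by -3.29 on the log2 scale (WNK1-deficient minus control), by the interaction test. The response of *Fcer1g* over the same times differed by 2.48, by the same test. Lane cannot be told apart from time in either, and neither was called with lane as a covariate.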

How the results depend on the processing

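The counts of called genes among the 9 moved as follows. With lane as a covariate they were 1, 8 and 0 between the genotypes at 0, 24 and 48 hr (3, 4 and 2 as reported). For WNK1-deficient thymocytes at 3, 24 and 48 hr against 0 hr they were 0, 4 and 1 (2, 7 and 6), and for the 24 hr interaction 0 (2). Calls over all 14141 tested genes moved as well, to 665, 2118 and 542 between the genotypes (3124, 1765 and 1850 as reported). For WNK1-deficient thymocytes they were 200, 1254 and 899 (3486, 4293 and 3789), and for the 24 hr interaction 5 (93). Without a filter the counts among the 9 were 1, 2 and 1 between the genotypes at 3, 24 and 48 hr. They were 3 for controls at 24 hr against 0 hr (reported 5) and 1 for WNK1-deficient thymocytes at 3 hr. Over all 27571 genes then tested the calls were 1190, 1623, 1450, 4753 and 3017 in that order. Without the trend and with only the groups compared the genotype counts were 1 at 3 hr and 1 at 48 hr. Without the trend WNK1-deficient thymocytes gave 1 at 3 hr (3426 over all genes). The genotype calls over all genes at 3 and 48 hr were 1298 and 1802 without the trend. With only the groups compared they were 275 and 228. Quantile normalization gave 1 between the genotypes at 48 hr (1655 over all genes). DESeq2 gave 5 between the genotypes at 3 hr (reported 3) and 4 for WNK1-deficient thymocytes at 3 hr (1817 and 4082 over all genes). Omitted together were replicate 3 of the controls at 3 and 24 hr and of the WNK1-deficient group at 48 hr. Without these 3 libraries WNK1-deficient thymocytes at 3 hr gave 4 and the 24 hr interaction 1. The 48 hr interaction gave 1 (reported 0, *Gzma*, -2.17). Over all genes that omission gave 4128, 324 and 333. With lane as a covariate the signs of *Tbx21* in controls at 3 hr (2.79) and *Gzma* in controls at 24 hr (-1.16), both against 0 hr, were reversed; the cause was not tested.

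Same-numbered libraries of the genotypes did not deviate together (12 pairs, r from -0.197 to 0.205, 2 over 0.1, and 6 of 24 libraries correlated best with their own number), so the numbers do not pair them. The replicate block gave 1 called gene between the genotypes at 48 hr, 1 for WNK1-deficient thymocytes at 3 hr and 1 for the 24 hr interaction. Over all genes it gave 1588, 2844 and 67.

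Leaving out 1 library at a time, the counts ran from 2 to 3, 0 to 2, 1 to 6 and 1 to 3 between the genotypes at 0, 3, 24 and 48 hr, from 1 to 4, 1 to 4 and 5 to 6 for controls and 0 to 3, 7 to 7 and 3 to 7 for WNK1-deficient thymocytes at 3, 24 and 48 hr against 0 hr, and from 0 to 0, 0 to 2 and 0 to 0 for the interactions. Of 1612 single values under the other settings 1520 kept their side of the threshold, 59 fell below it, 31 rose past it and 2 reversed sign with a call. Of 927 with a library left out the numbers were 825, 91, 11 and 0. A change of sign with no call in either fit is counted among those kept. The genotype difference of *Klrd1* at 48 hr, for example, ran from -1.03 to 1.04 with a library left out. Over all tested genes DESeq2 called 198, 362 and 433 interactions at 3, 24 and 48 hr against 10, 93 and 192 by limma. *Klrd1*, with 0 to 168 recovered reads per group, is limited by depth, and each mean rests on 3 or 4 mice.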
